A study of Mus musculus with 4 samples.

Results

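Cytoplasmic ribosomal protein genes were taken from the gene table of a single-nucleus RNA sequencing study of mouse lung by their symbols: those that begin with Rpl or Rps and a digit, plus Rpsa, Rplp0, Rplp1 and Rplp2, without the Rps6k kinases. This rule, which uses no measured value, found 91 of the 32285 genes. Of these, 43 encode proteins of the large subunit, 31 of the small subunit and 3 of the stalk (Rplp0, Rplp1 and Rplp2), and these 77 are called the core genes here. The other 14 are 8 variant paralogs (Rpl3l, Rpl7l1, Rpl10l, Rpl22l1, Rpl36al, Rpl39l, Rps27l and Rps27rt), 5 genes with a pseudogene symbol (Rpl9-ps1, Rpl9-ps6, Rpl10-ps3, Rpl36-ps4 and Rpl36a-ps1) and Rps19bp1, which only shares the letters and is no part of the ribosome. The study asked how endothelial cell (EC) senescence acts on pulmonary hypertension. Nuclei came from the lungs of 2 wild-type (WT) mice and 2 VEcad-TRF2DN-Tg (Tg) mice, all C57/BL6J, male and 8-9 weeks old, and all exposed to chronic hypoxia. In Tg mice the VE-cadherin promoter drives TRF2DN, a dominant-negative form of the telomere-binding protein TRF2, in ECs. The labels name 2 replicates per genotype without saying whether litter, day or run differed, so each p-value measures only the spread between these 4 libraries.

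The cytoplasmic ribosome joins a small subunit, which reads the codons of the mRNA, to a large subunit, which forms the peptide bonds, and the stalk of the large subunit recruits the elongation factors. The mRNAs of its proteins are among the most abundant of the cytoplasm. Most begin with a run of C and T bases, the terminal oligopyrimidine tract, through which their translation follows mTORC1 signaling. A nuclear preparation removes most of the cytoplasm, so mature ribosomal protein mRNA is not the RNA that it aims at. RNA that escapes from broken cells (free RNA) can enter any droplet, as can hemoglobin mRNA, which red cells without a nucleus carry.

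A run of C and T at the start was read in part of these genes. RefSeq start sites on GRCm38.p6 were found for 66 of the 91 symbols. In the 29 bases that run from 14 before the annotated start to the 15th base of the transcript, 27 of the 66 genes (40.9%) had an unbroken run of at least 8 C or T bases on the coding strand, and 25 of the 57 core genes did (43.9%). Of all 27025 genes with a start site, 3597 (13.3%) had such a run. A match here is a description of letters, and only the coding strand was read. The genes below are shown because the results turn on them, as high, as changing most or least between mice, or as nearest to leaving the group; capitals mark the longest run of C and T.
Rps24 (chr14:24490664-24490692, plus strand): ccgcgctggggTCCTTCCTTgcgcgttga
Rps9 (chr7:3704027-3704055, plus strand): ccgccttgTCTCTCTTTgtctcgggcctg
Rpl35 (chr2:39005117-39005145, minus strand): ggccccgCCCTTTCCTCTTTCTCTCgaac
Rpl15 (chr14:18270972-18271000, minus strand): tgggagaaagCCTTCTTCCTTTCCTCTgg
Rpl34 (chr3:130730323-130730351, minus strand): CTTCCTTTTCCTCTTCCggggacggtgct
Rps27 (chr3:90213634-90213662, minus strand): tttccgctttcgCTCCTTTCCggcggtga
Rps27rt (chr9:114982725-114982753, minus strand): gaacttaTCCCTTgctttccggcggtgac
Rpl37a (chr1:72711246-72711274, plus strand): TCCgctcgccggtctaaaaccgcgcatgc
Rpl10 (chrX:74270802-74270830, plus strand): ttgttacagtggaagataggccgCCTata
Rpl7l1 (chr17:46782642-46782670, minus strand): tgaggCTgcgcaagcgcagtagctgaagc
Rpl35 and Rpl15, which rose strongly between genotypes below, hold the run, and Rpl10, which rose most, does not hold it in this window. Rps9 holds it too. Rps27rt, a copy of Rps27 without introns, lies on another chromosome.

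Between 125261739 and 182014706 unique molecular identifiers (UMIs, each standing for 1 captured RNA molecule) were counted per mouse, and 25269 to 44000 barcodes per mouse held at least 1500 UMIs. Barcodes with 300 to 800 UMIs, of which there were 7688 in WT 1, 10371 in WT 2, 18387 in Tg 1 and 2732 in Tg 2, were set beside them as droplets with little RNA. Barcodes of 1500 or more UMIs were placed in classes by fixed marker genes. In the order WT 1, WT 2, Tg 1 and Tg 2, in which values are given from here on, this placed 29.4%, 25.3%, 61.0% and 45.5% of them in 14 classes that had at least 20 barcodes in every mouse. The EC class held 1078, 1012, 1822 and 2283 barcodes. Among the 10 leading genes of each class were 1 to 6 of its own markers and 0 of any other class. As the same markers placed the barcodes, this is no independent check of the classes. Libraries shared 176 to 475 barcodes pair by pair, at most 1.30% of either library. The transgene has no row of its own in the gene table, so the genotype labels could not be checked from it; mouse Terf2 in ECs stood at 50.04, 54.9, 50.4 and 52.0 CPM, where CPM is a gene's percent of the UMIs summed over a set of barcodes times 10000.

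Ribosomal protein genes took a small part of the RNA in every library, and a part that differed several-fold between the mice. At 1500 or more UMIs they held 0.516% of all UMIs in WT 1, 1.22% in WT 2, 2.70% in Tg 1 and 2.91% in Tg 2. In barcodes of 300 to 800 UMIs the share was 0.919%, 2.06%, 7.77% and 6.70%. Both Tg mice lay above both WT mice in each set of barcodes, and in every mouse the droplets with little RNA held the larger share. Counting error is small beside this: the widest 95% binomial (exact Clopper-Pearson) interval reached 0.0351 percentage points to either side, and it covers counting error only. Large subunit genes held 44.0%, 45.5%, 50.1% and 48.1% of the ribosomal protein UMIs at 1500 or more UMIs, and small subunit genes 43.9%, 44.7%, 43.7% and 44.9%. The stalk genes held 9.41%, 7.81%, 4.62% and 5.47%, less in both Tg mice. Core genes differed widely in level, from 9.60 (Rpl10) to 318 (Rplp1) CPM in WT 1 around a median of 47.6, and from 107 (Rpl4) upward in Tg 1 around a median of 310.1.

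Rplp1, Rpl41, Rpl37a, Rps29 and Rps24 were among the 6 genes with the highest level at 1500 or more UMIs. UMIs tag the 3′ end of an RNA, so CPM values were not divided by transcript length. Rplp1, an acidic stalk protein, stood at 318, 557, 682 and 887 CPM. Rpl41, which encodes one of the shortest proteins of the ribosome, stood at 141, 336, 748 and 905. Both genes were lowest in WT 1 and next in WT 2, and both Tg mice were above both WT mice. Rpl37a, a zinc-binding large subunit protein, stood at 114, 445, 616 and 942. Rps29, a small zinc-binding protein of the small subunit, stood at 56.3, 205, 750 and 937. Rps24, a small subunit protein mutated in some patients with Diamond-Blackfan anemia, stood at 133, 322, 630 and 667. Rps29 had the widest range of these 5, and in none of them did WT and Tg mice overlap in CPM. This was not counted over all genes. On an unlike measure, the level relative to the median gene in barcodes of 300 to 800 UMIs, 75.5% of all genes did not overlap. Relative to the median core gene in those barcodes, Rpl37a and Rpl41 did overlap.

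With rising depth of a barcode, the ribosomal protein share was lower, as was the hemoglobin share, though not at each step. Barcodes were grouped into 9 bins by their UMIs. From the bin that starts at 300 UMIs to the bin of 10000 or more, the share fell from 0.919% to 0.208% in WT 1, from 2.06% to 0.416% in WT 2, from 7.77% to 1.46% in Tg 1 and from 6.70% to 1.13% in Tg 2. Over the same bins the mean count of all UMIs per barcode went from 722 to 14424 in WT 1, while ribosomal protein UMIs per barcode went from 6.63 to 30.1. In Tg 2 they went from 47.7 to 147 while all UMIs went from 712 to 13037. In WT 2 the ribosomal protein share was 1.70% in the bin from 1000 UMIs and 1.79% in the next, where the hemoglobin share went from 0.0276% to 0.0245%. A deep barcode held many times more RNA than a shallow one, but only a few times more ribosomal protein RNA. The number of ribosomal protein UMIs per hemoglobin UMI stayed between 22.9 and 33.4 over the 9 bins in WT 1, between 55.3 and 99.2 in WT 2, between 9.56 and 11.2 in Tg 1 and between 12.8 and 15.6 in Tg 2. Within a mouse this ratio varied less than either share, and between mice it differed, with both Tg mice below both WT mice.

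**Figure D1:**
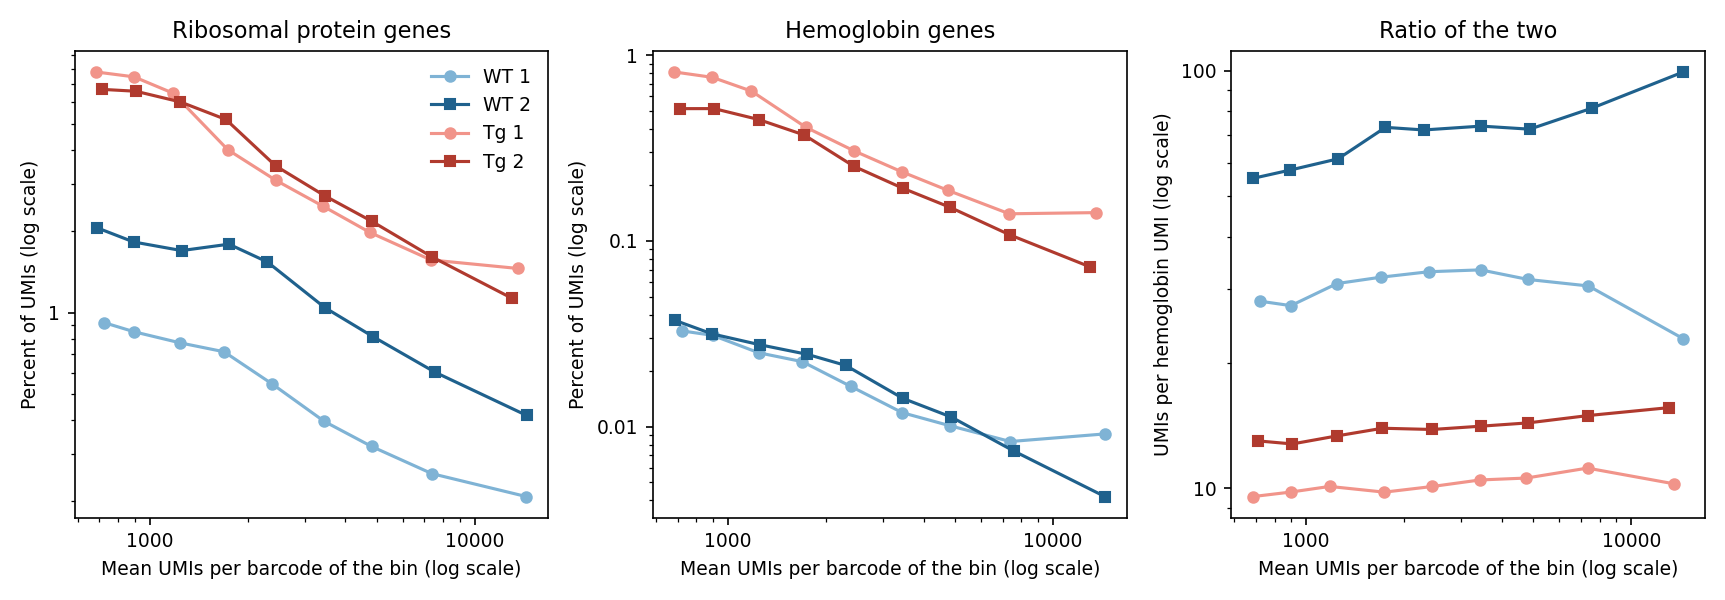
Percent of UMIs on ribosomal protein genes (left), percent on the 4 hemoglobin genes (middle) and ribosomal protein UMIs per hemoglobin UMI (right) against the mean UMIs per barcode in 9 depth bins, 1 point per bin and 1 line per mouse, all axes logarithmic. In every mouse both shares are lower in the deepest bin than in the shallowest, and the ratio stays within 22.9 to 33.4 in WT 1, 55.3 to 99.2 in WT 2, 9.56 to 11.2 in Tg 1 and 12.8 to 15.6 in Tg 2.

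The whole group was lower in the deep barcodes. With UMIs summed per mouse and set of barcodes and the mouse as a block (edgeR quasi-likelihood test, Benjamini-Hochberg adjusted over 18855 genes), 85 of 88 ribosomal protein genes tested were lower at 1500 or more UMIs than at 300 to 800 and 0 were higher; 18.3% of all genes tested were lower. The 88 genes had a median log2 change of -1.10, or 0.466-fold, from -1.50 (Rpl37a) to -0.46 (Rpl7l1), and all genes together had a median of 0.03, or 0.15 when scaled by library size alone. The calls covered 41 of 43 large subunit genes, 31 of 31 small subunit genes, 3 of 3 stalk genes, 6 of 7 paralogs, 3 of 3 pseudogenes and Rps19bp1. Rpl9-ps1, Rpl10l and Rpl36-ps4 had too few UMIs to be tested. Not called were Rpl15 (log2 change -0.74, adjusted p = 0.0736), Rpl3l (-0.81, 0.0841) and Rpl10 (-0.56, 0.179). Of the lists set beside them, hemoglobin genes were lower in 4 of 4 with a median of -1.41. Without Tg 2, 0 of 88 passed (78 at an unadjusted p under 0.05), with a median log2 change of -1.05; by DESeq2 on all mice, 86 of 88 were lower. With barcodes of 100 to 300 UMIs as the shallow set, 0 of 86 passed (1 at an unadjusted p under 0.05), with a median of -0.13 and 60 of 86 below 0. That set held only 18999, 19431, 20456 and 20300 UMIs, of which 115, 293, 1312 and 876 were on ribosomal protein genes, and the part of this low count was not tested.

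Gene by gene, most members moved by similar amounts between the sets of barcodes. Of the 91 genes, 83 had at least 20 UMIs in both sets in every mouse, among them all 77 core genes. The log2 ratio of the level at 1500 or more UMIs to that at 300 to 800 had a median over these genes of -0.75 in WT 1, -0.58 in WT 2, -1.53 in Tg 1 and -1.18 in Tg 2. Around the median of its mouse, a gene's ratio lay within 0.5 for 82 of 83 genes in WT 1, 69 in WT 2, 82 in Tg 1 and 80 in Tg 2, with an SD over genes of 0.22, 0.34, 0.17 and 0.18. WT 2 had the widest spread. A gene was to count as not following the others if it lay more than 1 from the median, on the same side, in all 4 mice. By this rule 0 of 83 did. These counts were not taken over all genes, so they show nothing particular to ribosomal protein genes.

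The genes at both ends of this order were chosen after their values were seen. Rpl7l1, a variant paralog of Rpl7 with a role in ribosome assembly, lay 0.37, 0.35, 1.23 and 0.70 above the median of the 4 mice. Its level was 20.7, 30.0, 37.2 and 35.5 CPM in deep barcodes and 26.8, 35.3, 45.8 and 49.3 in shallow ones, lower in the deep set in all 4 mice (log2 change -0.46, edgeR adjusted p = 0.0265). Rpl10, the large subunit protein that helps to form the peptidyl transferase center, lay 0.93, 0.88, 0.20 and 0.43 above. Its departure was the larger in WT mice, where it had the lowest level of all core genes, whereas that of Rpl7l1 was the larger in Tg mice. Rps25 (0.23, 0.57, 0.32 and 0.52), a small subunit protein used in initiation at viral internal ribosome entry sites, came next. Rpl15, a large subunit protein, lay 0.49, 0.72, 0.08 and 0.30 above the median. At the other end, Rpl37a lay at -0.40, -0.69, -0.13 and -0.31 relative to the median, and Rps9, a small subunit protein, at -0.35, -0.65, 0.06 and -0.06. Rps9 was thus near the low end in WT mice and near the median in Tg mice. Over the 77 core genes the mean ratio had a Spearman rho of -0.63 with the mean level in deep barcodes, 0.14 with the bases of intron, 0.12 with the bases of exon and 0.21 with the number of small nucleolar RNA genes inside, values that describe genes of the same 4 libraries and not independent samples.

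**Figure D2:**
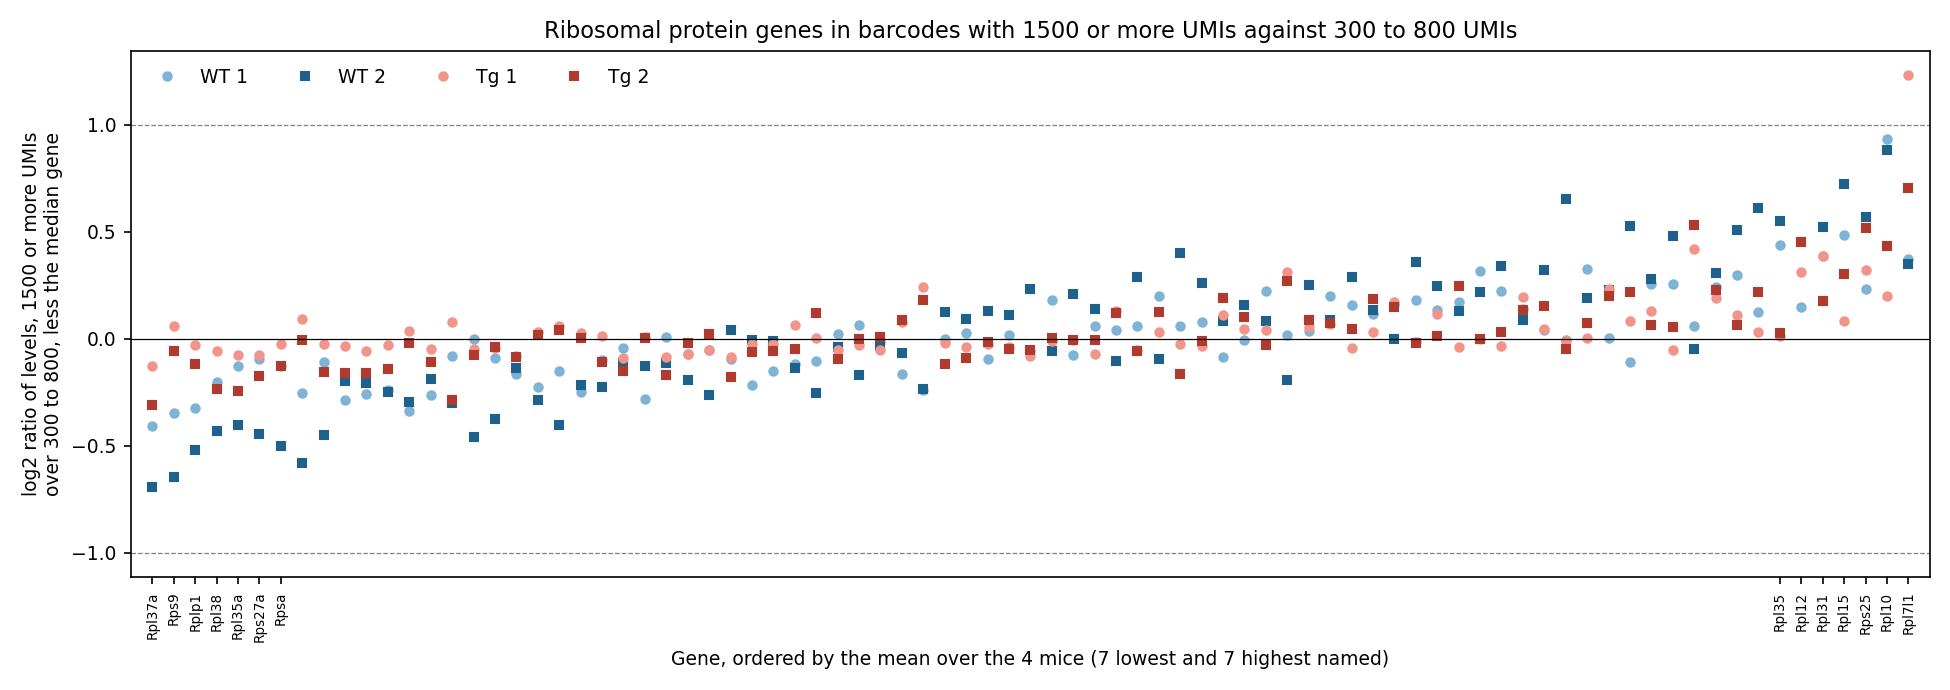
The log2 ratio of the level at 1500 or more UMIs to that at 300 to 800, less the median over genes of that mouse, for the 83 genes with enough UMIs, ordered by their mean, with 1 point per mouse and the genes at both ends named. The dashed lines stand at 1 and -1; Rpl7l1 passes the upper line in Tg 1 only, and no gene passes either line in all 4 mice.

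Of the 8 paralogs, 5 had enough UMIs for this, Rpl7l1 among them. Rpl22l1, a paralog of Rpl22 that also binds pre-mRNA, lay 0.20, 0.09, 0.07 and 0.07 above the median. Rps27l, a paralog of Rps27 known as a p53 target, lay at 0.01, -0.11, -0.09 and -0.17. Rpl36al, an expressed copy of Rpl36a, lay at 0.00, -0.46, -0.05 and -0.08. Rps27rt lay at -0.24, -0.23, 0.24 and 0.18, below the median in WT and above it in Tg mice, from 23 to 162 UMIs in shallow barcodes. In deep barcodes levels were 21.8, 42.7, 81.7 and 80.0 CPM for Rpl22l1, 24.2, 34.8, 101 and 99.6 for Rps27l, and 55.0, 107, 189 and 196 for Rpl36al. None of these 3 had WT and Tg mice that overlap in CPM. The share of all genes without overlap, 75.5%, was taken on levels relative to the median gene in shallow barcodes, an unlike measure. In level relative to the median core gene, Rps27l did overlap, in shallow and in deep barcodes. Rpl39l, the testis paralog of Rpl39, had 36, 93, 18 and 71 UMIs in deep barcodes, against 3191, 15324, 23772 and 53466 for Rpl39, and Rpl10l, the testis paralog of Rpl10, had 0 to 2. Too few UMIs for the comparison were also found for Rpl3l, a muscle paralog of Rpl3, and for Rps19bp1, Rpl9-ps1, Rpl10-ps3 and Rpl36a-ps1, and Rpl36-ps4 was at 0 in both sets of all mice. Rps4l, a further paralog looked for, is not in the gene table.

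Across the 14 classes, a barcode of a mouse held nearly the same number of ribosomal protein UMIs whatever its class. The median per barcode ranged from 11 in pericytes to 16 in mesothelial barcodes in WT 1, a ratio of 1.45. It ranged from 32 (AT1, alveolar type 1 epithelium) to 42.5 (lymphatic EC) in WT 2, from 72 (monocyte and interstitial macrophage) to 84 (lymphatic EC) in Tg 1 and from 87 (fibroblast) to 97 (mesothelial) in Tg 2, ratios of 1.33, 1.17 and 1.11. The median of all UMIs per barcode spread more, by 2.11, 2.25, 1.78 and 1.80 times from the lowest to the highest class. ECs had a median of 12, 34, 79 and 91 ribosomal protein UMIs, T and NK cells 12.5, 36, 81 and 93, and AT1 barcodes 12, 32, 73 and 87. Values differed far more between the WT mice, and between WT and Tg mice, than between the classes of a mouse, while the Tg mice differed from each other about as much as their classes did.

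As a share of UMIs the classes differed more, by 1.95, 1.74, 1.85 and 1.91 times from the lowest to the highest. T and NK cells had the highest share in all 4 mice, at 0.528%, 1.01%, 3.39% and 3.17%. ECs stood at 0.441%, 0.984%, 3.08% and 2.81%, in each mouse among the 3 highest of 14, and B cells at 0.521%, 0.817%, 3.20% and 2.97%. AT1 barcodes stood at 0.271%, 0.601%, 2.05% and 1.97%, and ciliated barcodes at 0.293%, 0.616%, 1.83% and 1.66%. These last ranked in the lowest 3 of 14 in each mouse. Neighbours in the order changed places between mice: B cells ranked above ECs in 3 mice and below them in WT 2, and ciliated barcodes ranked below AT1 in both Tg mice and above in both WT mice. The widest 95% binomial (exact Clopper-Pearson) interval among these shares was 0.110 percentage points to either side. Per hemoglobin UMI, ribosomal protein UMIs in a class stood at 0.844 to 1.82 times the ratio of the shallow barcodes in WT 1, 1.10 to 1.89 times in WT 2, 0.972 to 1.25 times in Tg 1 and 1.04 to 1.17 times in Tg 2. Hemoglobin UMIs were few in some classes of WT 1. There were 11 in pericytes, 14 in lymphatic ECs, 90 in fibroblasts and 98 in club barcodes, against 508 in ECs.

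**Figure D3:**
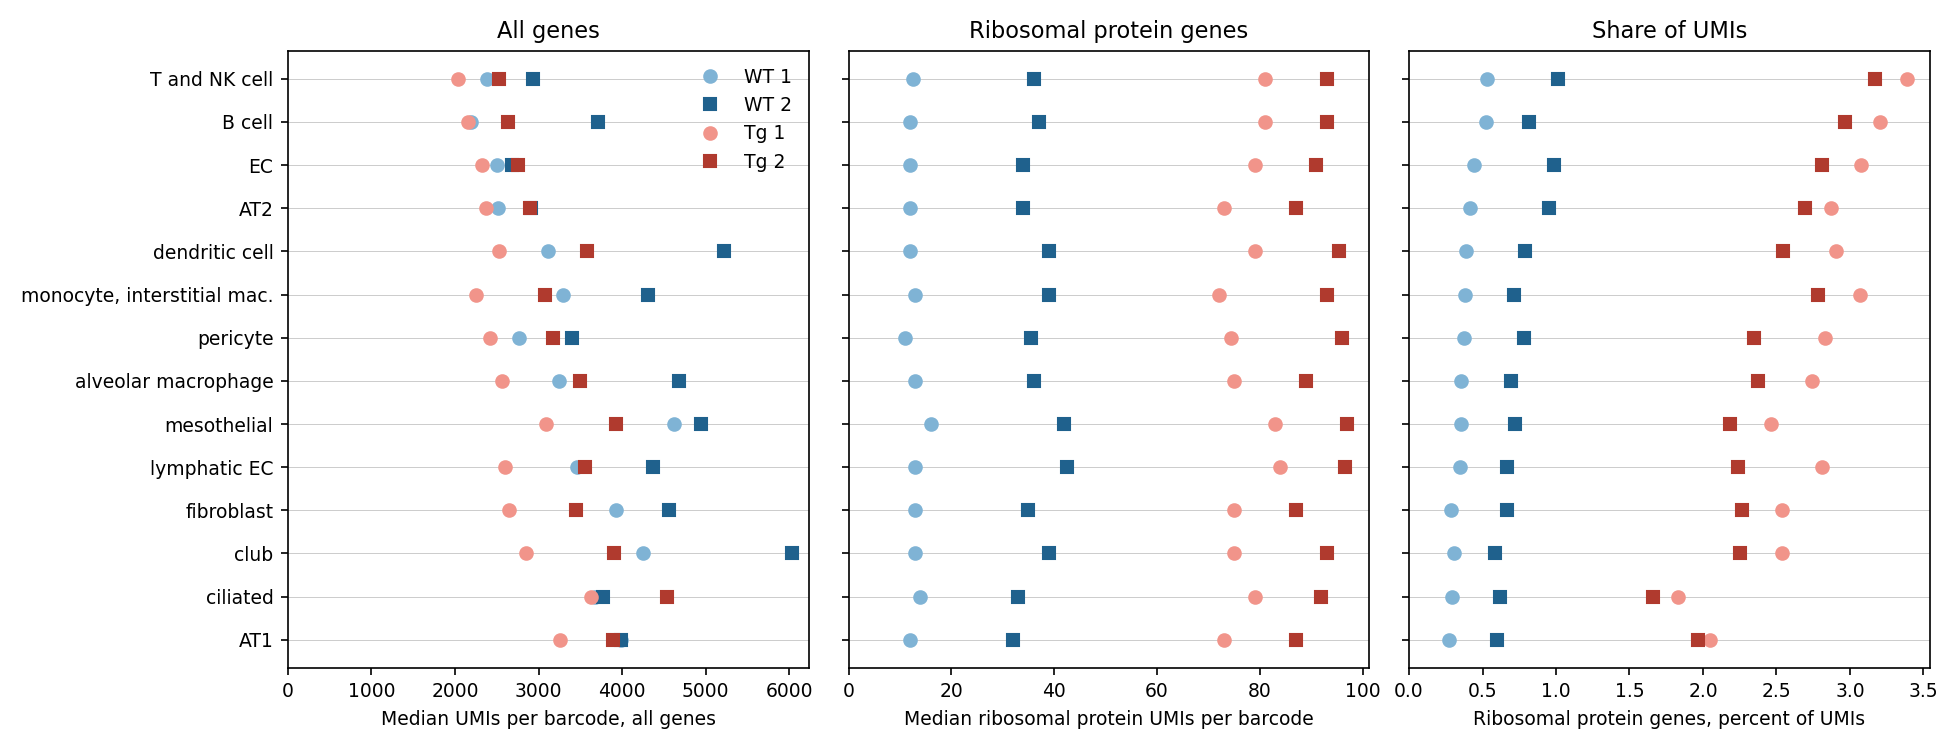
Median UMIs per barcode over all genes (left), median ribosomal protein UMIs per barcode (middle) and the percent of UMIs on ribosomal protein genes (right) in 14 marker-defined classes, 1 point per mouse; classes are ordered by their share and axes start at 0. In the middle panel the points of 1 mouse form nearly vertical columns, at 11 to 16 in WT 1, 32 to 42.5 in WT 2, 72 to 84 in Tg 1 and 87 to 97 in Tg 2.

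Between classes, 82 of 85 genes tested differed by the edgeR quasi-likelihood F test with the mouse as a block, against 88.3% of all 15216 genes tested, a share near this background. Rps27rt, Rpl10-ps3 and Rps19bp1 were the genes not called. With the profile of shallow barcodes subtracted from each sum in proportion to its hemoglobin UMIs, an alternative added after the data were seen, 12 of 82 differed, against 80.1% of all genes; with the profile of barcodes under 100 UMIs subtracted, 43 of 62 did, against 75.7%. No ribosomal protein gene stood out in a class by the rule set for it. A gene had to lie more than 1 on the log2 scale from its mean over the other classes in all 4 mice. Levels were taken relative to the median gene, and 0 met the rule. The rule was not applied to all genes, and low counts in 1 mouse can keep a gene from meeting it. The 0 therefore does not show that no class has such a gene. The levels of core genes with at least 20 UMIs in a class were set against those of their mouse's shallow barcodes. After the shift common to the class was removed, 603 of 666 pairs of gene and class (90.5%) lay within 0.5 on the log2 scale of the shallow profile in WT 1, 756 of 946 (79.9%) in WT 2, 1046 of 1059 (98.8%) in Tg 1 and 1049 of 1078 (97.3%) in Tg 2. Pairs more than 1 away numbered 12, 12, 0 and 0. The small classes of WT 1 added little to this, with 3 of 77 core genes each in pericytes, monocytes and interstitial macrophages, dendritic cells and B cells, and 6 in lymphatic ECs. In WT 2 the part within 0.5 was lowest in club barcodes (66.2%) and pericytes (70%, of 30 genes). Rplp1 illustrates the common shift: it stood at 267, 455, 787 and 864 CPM in ECs, 311, 469, 904 and 992 in T and NK cells, and 172, 269, 503 and 595 in AT1 barcodes. The order T and NK cells, ECs, AT1 held in each mouse.

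Between genotypes, ribosomal protein genes were higher in Tg mice in every set of barcodes examined, the shallow droplets included. At 1500 or more UMIs the share was 0.870% ± 0.501 (SD, n = 2) in WT and 2.81% ± 0.151 (SD, n = 2) in Tg mice, a difference of 1.94 percentage points that both Tg mice showed against both WT mice. The two-sided exact permutation test gave p = 0.333, the smallest that 2 against 2 mice allow. In barcodes of 300 to 800 UMIs, 78 of 87 genes tested were higher in Tg mice and 0 lower (edgeR quasi-likelihood test, adjusted over 15180 genes), where 14.5% of all genes were higher. The median log2 fold change of the 87 genes was 2.72, from -0.46 (Rpl9-ps6) to 5.10 (Rpl10), while that of all genes was 0.04, or -0.22 scaled by library size alone, a scaling under which the median of the 87 was 2.45. Without Tg 1, 0 of 87 passed (76 at an unadjusted p under 0.05), and without Tg 2, 45 of 88 did. Either fit leaves the Tg side with 1 library, which is assumed to vary as the 2 WT mice do, here and in the classes. The 4 hemoglobin genes were also all higher, by a median of 4.55 on the log2 scale, and the part of free RNA in the difference at this depth was not tested.

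In ECs, the cells in which the promoter drives the transgene, 72 of 86 genes tested were higher in Tg mice and 0 lower, against 5.53% of all 14610 genes, with a median log2 fold change of 2.15 (4.45-fold) and a range from -1.08 (Rpl9-ps6) to 3.51 (Rpl10). The calls covered 38 of 43 large subunit genes, 29 of 31 small subunit genes, 1 of 3 stalk genes, 3 of 6 paralogs, 0 of 2 pseudogenes and Rps19bp1. Rpl26, a large subunit protein that also binds the p53 mRNA, had the lowest adjusted p: it stood at 47.9, 76.2, 368 and 321 CPM, a log2 fold change of 2.46 (SE 0.25, adjusted p = 0.0190). Rps27l stood at 21.4, 31.0, 110 and 98.8 (1.98), Rpl18 at 41.3, 61.7, 423 and 278 (2.76), Rpl34 at 29.2, 54.1, 358 and 265 (2.89) and Rpl12, a protein at the base of the stalk, at 32.9, 53.1, 211 and 175 (2.16), each with an adjusted p of 0.0208. In each of these 5 genes both Tg mice were above both WT mice, which is no separate result, as they were chosen by their low p. The hemoglobin genes, which serve red cells, were higher in ECs of Tg mice in 4 of 4 cases, by a median of 4.17. With the profile of shallow barcodes subtracted by hemoglobin UMIs, 0 of 72 genes passed in ECs (11 at an unadjusted p under 0.05), and with that of barcodes under 100 UMIs, 0 of 7 (3 at an unadjusted p under 0.05). ECs of WT 1 held 28.8 ribosomal protein UMIs per hemoglobin UMI, and barcodes under 100 UMIs of that mouse 40.0. The second subtraction thus took more than these ECs held, and values below 0 were set to 0. Neither subtraction left any call among all 12781 and 8355 genes tested. After the first, the median log2 fold change was 0.12 with a median SE of 1.56, against an SE of 0.37 before, and 38 of 72 genes were above 0; after the second it was 2.70, with a median SE of 1.77. Without Tg 1, 0 of 86 passed (80 at an unadjusted p under 0.05), and without Tg 2, 10 of 86; by DESeq2, 78 of 86 were higher.

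The other classes showed the same direction. Tested class by class, 1048 of 1160 pairs of gene and class were higher in Tg mice and 0 lower, against 5.57% of all such pairs. Medians of the log2 fold change ran from 2.01 in ciliated to 2.51 in club barcodes, with ECs (2.15) inside that range; whether ECs differ from the other classes was not tested. Called were 66 of 87 genes in AT2 (alveolar type 2 epithelium), 66 of 86 in ciliated, 76 of 86 in alveolar macrophages, 77 of 80 in pericytes and 79 of 81 in T and NK cells. The filter on low counts can be met by the Tg mice alone, so genes scarce in WT mice were tested too. Pericytes of WT 1 held 488 ribosomal protein UMIs in all. With no count filter, 1122 of 1225 pairs were higher. Classes of 1 mouse come from 1 library and are not independent. With the shallow profile subtracted, 4 of 865 pairs passed (238 at an unadjusted p under 0.05), 3 higher and 1 lower, against 0.0622% of all such pairs (0.0412% higher and 0.0210% lower), among them Rpl23a higher and Rps24 lower in fibroblasts, and Rps9 higher in alveolar macrophages. The subtraction left Rps24 39 and 74 UMIs in fibroblasts of WT mice and 0 in both Tg mice, out of 102, 292, 651 and 791. With the profile of barcodes under 100 UMIs subtracted, 0 of 149 did (55 at an unadjusted p under 0.05), nor did any other of the 96953 pairs of all genes. The median log2 fold change was 0.63 after the first subtraction and 1.84 after the second. Without Tg 1, 579 of 1166 pairs passed, and without Tg 2, 653 of 1161.

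**Figure D4:**
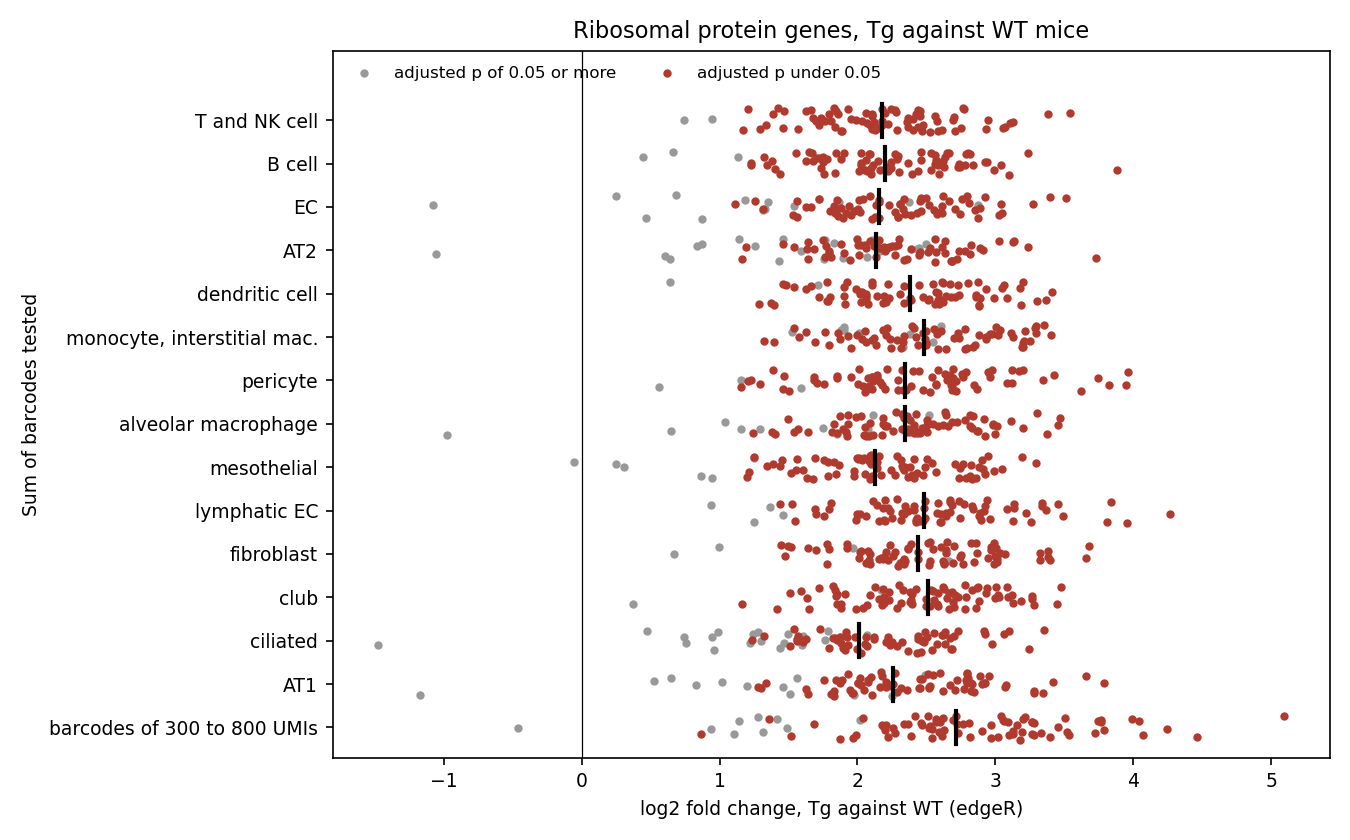
The log2 fold change of Tg against WT mice by edgeR for each ribosomal protein gene tested in 14 classes and in barcodes of 300 to 800 UMIs, 1 point per gene, red where the adjusted p was under 0.05; the vertical bar marks the median. Nearly all points lie to the right of 0 in every row, with medians of 2.01 to 2.51 in the classes and 2.72 in the shallow barcodes.

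Of the 79 genes tested in all 14 classes, 51 were called higher in every one, against 2.56% of all 3823 genes tested in all classes. In small classes a gene could enter the test through the Tg mice alone. Among the 10 with the largest mean log2 fold change over the classes were Rpl10 (3.52), Rps27 (3.32), Rpl35 (3.22), Rpl30 (3.18), Rps29 (3.16), Rpl15 (3.06), Rpl9 (3.03) and Rps2 (2.89). Rpl10 stood at 8.74, 25.3, 270 and 121 CPM in ECs, and Rps27, a zinc-finger protein of the small subunit, at 11.8, 42.3, 310 and 262. Rpl35, a protein at the exit of the peptide tunnel, stood at 8.74, 31.0, 197 and 192. In each of the 3, WT 1 was the lowest and both Tg mice were far above WT 2. Of the stalk genes, Rplp0 was called in 14 classes, Rplp1 in 12 and Rplp2 in 9. Rpsa, the laminin receptor precursor and a small subunit protein, was called in 2 of 14, with 128, 259, 331 and 383 CPM in ECs (log2 fold change 0.88, adjusted p = 0.129). Among the paralogs, Rps27l was called in 13 of 14 classes, Rpl36al in 12 of 14, Rpl22l1 in 8 of 13, Rpl3l in 1 of 4, Rpl7l1 in 0 of 10 and Rps27rt in 0 of 6. Rpl9-ps6 and Rpl10-ps3 were called in 0 of 6 each.

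The genes did not differ between genotypes by equal factors. The level of each of the 83 genes in shallow barcodes was set against the median core gene of its mouse on the log2 scale. Between the 2 WT mice the SD over genes of the difference in this relative level was 0.35, and between the 2 Tg mice 0.36, whereas between a WT and a Tg mouse it was 0.71 to 1.03. For 64 of 83 genes the relative level of the 2 WT mice did not overlap that of the 2 Tg mice, and for 15 the means differed by more than 1. Of all 10492 genes with as many UMIs, set against the median of all of them, 75.5% did not overlap and 29.8% differed by more than 1, so these counts are nothing particular to ribosomal protein genes. They describe 4 libraries, with no test of the difference. Relative to that gene, Rpl10 went from -3.25 and -3.00 in WT to -0.57 and -1.54 in Tg mice, Rps27 from -1.61 and -1.75 to -0.17 and -0.06, and Rps29 from 0.17 and 0.45 to 1.32 and 1.89. These rose relative to the other genes. In the other direction, Rpsa went from 1.79 and 2.02 to -0.05 and 0.56, Rps9 from 2.40 and 2.43 to 0.56 and 1.25, and Rplp1 from 3.05 and 2.81 to 1.19 and 1.76. Rplp1 and Rps9 were still above the median gene in Tg mice, though by less. In deep barcodes the same genes moved the same way: Rpl10 by 1.42, Rps27 by 1.16, Rps29 by 0.91, Rpsa by -1.47, Rps9 by -1.07 and Rplp1 by -1.17.

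**Figure D5:**
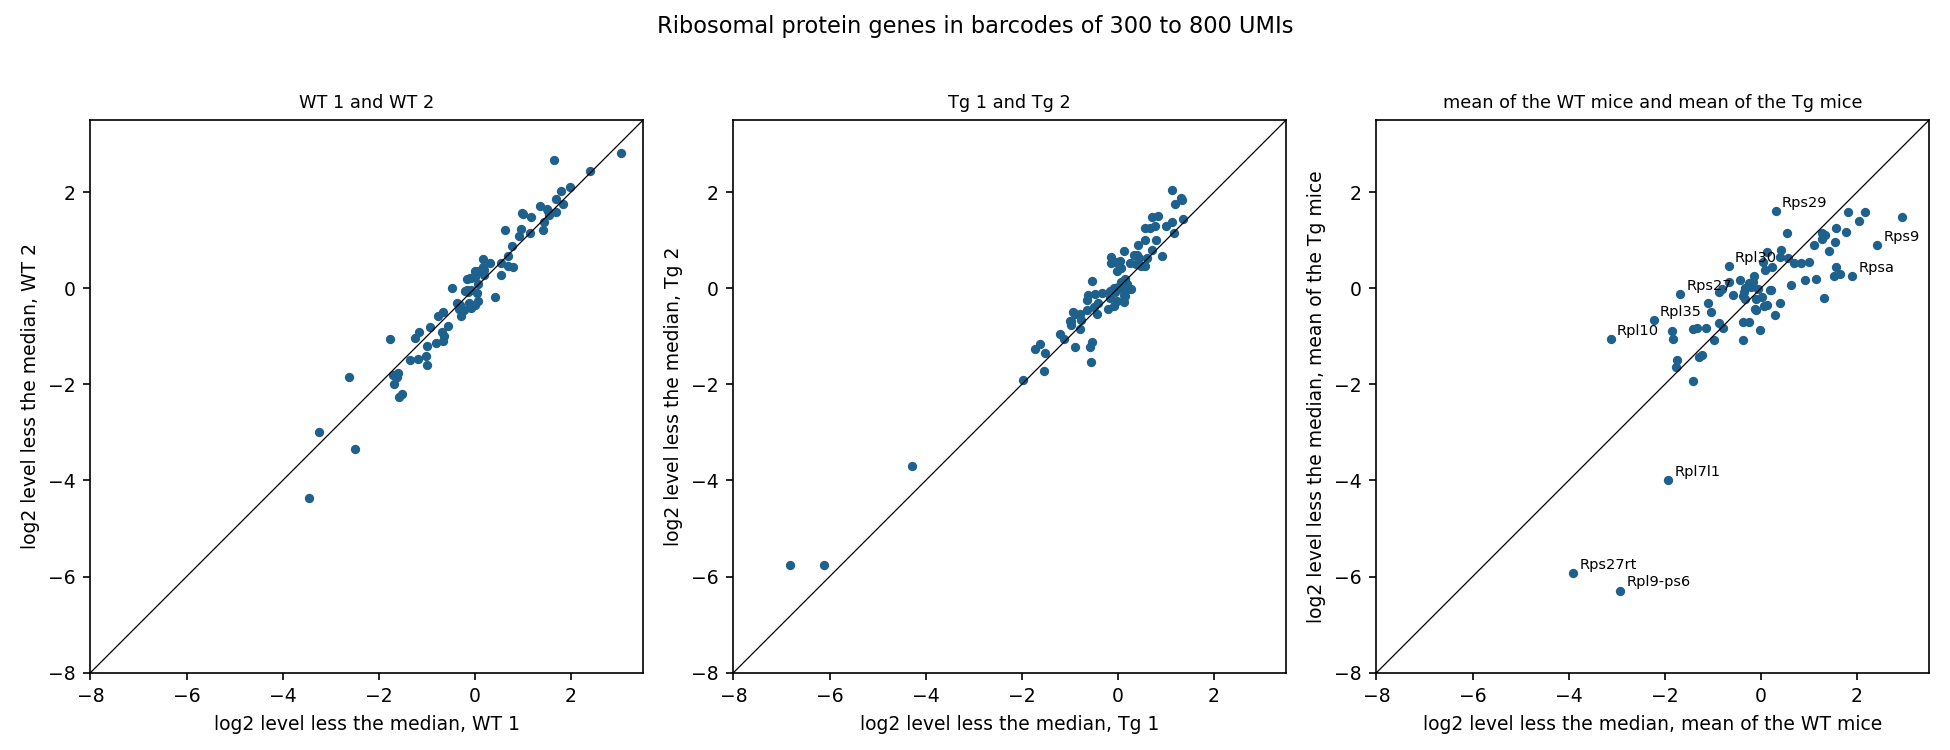
Level of the 83 genes relative to the median core gene of the same mouse, in log2 units, in barcodes of 300 to 800 UMIs, for the 2 WT mice (left), the 2 Tg mice (middle) and the mean of each genotype (right); the line marks equal values. Points lie near the line within a genotype (SD of the difference 0.35 and 0.36) and spread further between genotypes, with Rpl10, Rpl35, Rps27 and Rps29 above it and Rpsa, Rps9, Rpl7l1 and Rpl9-ps6 below.

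Near-identical copies limit what can be said of some of these genes. Over the last 300 bases of the transcript, where this method reads, all windows of 50 bases of Rpl10, Rpl9, Rps27 and Rpl36a were found in a transcript of another gene, and 92.4% of those of Rpl9-ps6, 88.4% of those of Rps27rt and 88.8% of those of Rpl10-ps3 were. The assignment of UMIs between such copies is uncertain. In shallow barcodes Rpl9-ps6 took 25.1%, 14.6%, 0.802% and 2.18% of the UMIs of Rpl9 and itself, Rps27rt took 21.8%, 14.1%, 1.60% and 1.88% of those of Rps27 and itself, and Rpl10-ps3 took 32.9%, 16.5%, 1.06% and 4.03% of those of Rpl10 and itself. The copy's part was smaller in both Tg mice in each of the 3 pairs. Rpl9-ps6 itself stood at 14.2, 16.7, 7.86 and 11.8 CPM, the only gene tested with a negative fold change there (log2 fold change -0.46, adjusted p = 0.279). Rpl36al took 79.6%, 73.1%, 56.0% and 53.9% of the UMIs of Rpl36a and itself. Rpl35, Rpl30 and Rps2, which rose strongly between genotypes, share 96.0%, 80.1% and 78.1% of their windows. Rps9, Rplp1 and Rps29 share 50.6%, 66.9% and 48.6% of theirs, and Rpsa, Rps24 and Rpl15 share 0 of them. For each gene 1 annotated transcript was read, the longest among those ranked equal. It had 1938 bases for Rpsa, 1613 for Rps24 and 1922 for Rpl15. Other 3′ ends of a gene were not read, so a share of 0 does not show that its UMIs are free of such copies.

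Lists of related genes were read beside the ribosomal protein genes. Of all genes tested, 18.3% were lower in deep barcodes, 14.5% higher in Tg mice in shallow barcodes and 5.53% higher in ECs. Of 17 translation factors and other genes whose mRNAs have the same oligopyrimidine start, such as Eef1a1 and Tpt1, 15 were lower in deep barcodes (median log2 change -1.01), 13 were higher in Tg mice in shallow barcodes (1.59) and 6 in ECs (0.98). Of 78 mitochondrial ribosomal protein genes, which build a separate ribosome, 54 were lower in deep barcodes (-0.73), 47 were higher in Tg mice in shallow barcodes (1.34) and 16 in ECs (0.88). Medians of these lists were smaller in size than those of the cytoplasmic ribosomal protein genes (-1.10, 2.72 and 2.15). Of 15 nucleolar ribosome assembly genes, such as Ncl and Nop56, 6 were lower in deep barcodes (-0.42), 2 were higher in Tg mice in shallow barcodes (0.33) and 1 in ECs (0.22), both near the share of all genes. Of 5 host genes of small nucleolar RNAs, such as Gas5, 4 were lower in deep barcodes, 4 higher in Tg mice in shallow barcodes and 1 in ECs. Of 5 transcripts of secretory epithelium, such as Scgb1a1 and Sftpc, 4 were lower in deep barcodes (-1.24), 2 were higher in Tg mice in shallow barcodes (2.81) and 2 in ECs (1.90). In shallow barcodes these 5 transcripts held 1.97%, 1.95%, 15.7% and 6.33% of UMIs, and mitochondrially encoded genes 0.126%, 0.151%, 0.785% and 0.685%. Both shares were higher in both Tg mice, and their part in the result was not tested.

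The drop from shallow to deep barcodes was itself deeper in Tg mice. The difference between the genotypes in the log2 ratio of the sets had a median of -0.88 over the 88 genes tested, and 87 of 88 differences were negative; 78 passed (edgeR quasi-likelihood test of the interaction, adjusted over 20117 genes), against 12% of all genes lower in Tg mice, whose median was 0.02. The largest was that of Rpl10 (-1.54, SE 0.24, adjusted p = 0.000213), and Rpl35 (-1.43) and Rpl15 (-1.36) came next among the genes named here. Rpl7l1 (-0.32, adjusted p = 0.187), Rps9 (-0.41, 0.0965) and Rps26 (-0.45, 0.0679) did not pass. The 4 hemoglobin genes had a median of -0.56 in the same test. The deep sets differed in make-up: 56.6%, 54.7%, 22.4% and 35.3% of their barcodes had too few marker UMIs for a class. Their median depth was 1860, 1961, 2512 and 2530 UMIs. The part of this make-up in the deeper drop was not tested. Without WT 1, 33 of 88 genes passed, and without WT 2, 16 of 88.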

How the data were processed

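Nuclei of 4 mouse lungs were profiled with a 10x Genomics 3′ kit. The authors deposited raw counts: UMI counts per gene and barcode, unfiltered, 1 matrix per mouse. They used Cell Ranger 6.1.1 on mm10 (submitters' processing notes) with intron reads counted. Their later removal of multiplets and ambient RNA is not in these counts. Members, lists and markers were chosen with earlier results of these data known.

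A barcode of 1500 or more UMIs joined a class when it had at least 3 UMIs on at least 3 of its markers and a summed -log10 Poisson tail over the 300 to 800 UMI profile of at least 5 and 2 times the next class; barcodes with markers of several classes were left out, and no doublet caller was run. UMIs were summed per mouse and tested with edgeR 4.0.16 (quasi-likelihood, TMM, filterByExpr minimum count 10) in R 4.3.3, with Benjamini-Hochberg adjustment over all genes and a threshold of 0.05. DESeq2 1.42.0 was the alternative. A fold change is that of edgeR. Scripts were tested on simulated data. SMC, neutrophil and cardiac muscle markers gave too few barcodes. Between-gene ratios used Python 3.11.15 and pandas 2.3.3.

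Genes were named by rules: the 6 highest levels, members leaving the group between barcode sets or classes, paralogs, the 10 called in most classes (ties by mean log2 fold change) and the 5 lowest p in ECs. Other genes named were chosen after their values were seen: the ends of the order between barcode sets, stalk genes, Rpsa, Rps9 and the copies. Shares have exact Clopper-Pearson 95% intervals. Copies and gene spans were read from GENCODE on GRCm38, start sites from RefSeq on GRCm38.p6. Other alternatives were no count filter, 3000 or more UMIs, stricter class placement (score 10), 100 to 300 UMIs as the shallow set, free RNA subtraction, the replicate number as a block and each mouse left out, where a genotype of 1 remaining library is assumed to vary like the other. Results that need a few of the genes are not reported here.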

Additional observations from a re-analysis of the deposited data

Results flagged for a closer look

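The fall of ribosomal protein genes from barcodes of 300 to 800 UMIs to all those of 1500 or more differed between genotypes by the test of that difference itself. In this test 78 of 88 genes passed, all with the larger fall in Tg mice (84 at an unadjusted p under 0.05, and 77 by DESeq2). Of all genes tested, 12% passed in this direction. Within classes the genotypes overlapped in some, such as club barcodes (median log2 ratio of core genes -1.53, -1.57, -1.63 and -1.53). In others, such as AT2 (-1.07, -0.89, -1.45 and -1.28), both Tg mice fell more. In monocytes and interstitial macrophages (-1.57, -1.40, -1.30 and -1.23) both Tg mice fell less, with only 3 core genes read in WT 1. The part of the barcodes outside the classes was not tested. Leaving out 1 mouse gave 16 to 85 calls, the fewest without WT 2 and the next fewest, 33, without WT 1. The ribosomal protein share in shallow barcodes, 0.919% and 2.06% in WT and 7.77% and 6.70% in Tg mice, and the hemoglobin share there, 0.0329%, 0.0373%, 0.812% and 0.515%, moved with it; their part in the result was not tested.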

How the results depend on the processing

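Calls in the other direction were 1 gene in 1 class each: Rpl9-ps6 lower in AT2 with no count filter (log2 fold change -1.04) and with the replicate block (-1.07), and Rps24 lower in fibroblasts with the profile of 300 to 800 UMIs subtracted, a gene higher in 14 of 14 classes without it. For deep against shallow barcodes (85 calls), 100 to 300 UMIs as the shallow set gave 0, and leaving out a mouse gave 0 to 86. For the difference of that ratio between genotypes (78), leaving out a mouse gave 16 to 85. Between classes (82), subtracting the profile of barcodes under 100 UMIs gave 43 and that of 300 to 800 UMIs 12; leaving out a mouse gave 77 to 81. For Tg against WT, the first subtraction gave 0 calls in ECs and 0 in all classes, the second 0 and 4. Subtraction also left fewer genes to test, 7 and 72 in ECs, where it left no call among all genes. The profile of barcodes under 100 UMIs took more ribosomal protein UMIs than ECs of WT 1 held. Beyond that the cause was not tested. Leaving out a mouse gave 0 to 82 calls in ECs (72), 579 to 1118 in all classes (1048) and 0 to 82 at 300 to 800 UMIs (78). The share difference (1.94 percentage points) ranged from 1.57 to 2.26 over 3 other settings and from 1.58 to 2.29 without a mouse. DESeq2, no count filter, 3000 or more UMIs and stricter placement kept each count they were run for within 1.5 times. Added after the data were seen were the second subtraction and the alternatives for the difference of the ratio.

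Replicate numbers are shared by the genotypes, but nothing says that they mark pairs. Deviations of same-numbered mice from their genotype's mean correlated at 0.15 over genes in ECs and 0.13 at 300 to 800 UMIs. With 2 mice per genotype both numbers give the same value by construction, so it cannot show whether they mark pairs. With the number as a replicate block, calls were 82 in ECs, 1108 in all classes (1 of them lower) and 75 at 300 to 800 UMIs.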
